A study of Mus musculus with 4 samples.

Results

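Ephrins, semaphorins, Slits and netrins, together with their receptors, were compared between Lgr5+ and Lgr6+ progenitors of the neonatal mouse cochlea. The genes were chosen by symbol alone, as Eph receptors and ephrins, semaphorins of classes 3 to 7, plexins, neuropilins, Slits, Robos, netrins and the netrin receptors of the Unc5 family, *Dcc* and *Neo1*. This gave 71 of the 23997 genes in the deposited table, of which 35 encode ligands, 35 encode receptors and 1, *Plxna4os1*, is an antisense RNA of *Plxna4*. Cochleae were taken at postnatal day 3, and cells carrying EGFP were isolated by flow cytometry. The Lgr5+ progenitors came from mice with the allele Lgr5-EGFP-IRES-creERT2 and the Lgr6+ progenitors from mice with the allele Lgr6-EGFP-IRES-CreERT2, and the strain is labelled as C57BL/6 for both. In each allele the reporter is placed under the promoter of the gene it marks. Each population has 2 libraries in the labels, whereas the study's methods describe 3 fractions of the RNA extracted from each, and how many entered the combined value is not given in the sources used here. The table holds 1 FPKM (a fragment count scaled by transcript length and by the mapped fragments of the library) for each gene and population with the libraries combined, so every difference below is between 2 values, has no replicate check and was not tested.

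These ligands and receptors were first described in growing axons, which they attract or repel, and they also set boundaries between cells and shape vessels and epithelia. Ephrins are bound to the membrane of one cell and signal through Eph receptor tyrosine kinases on its neighbour, and the ephrin can signal back into its own cell. Secreted class 3 semaphorins bind neuropilins, which pair with A plexins, while most membrane-bound semaphorins bind plexins directly. Slits act through Robo receptors, and netrins act through Dcc, neogenin and the Unc5 receptors. In the cochlea, guidance molecules made by the epithelium steer the processes of spiral ganglion neurons toward the hair cells (HCs).

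Of the 71 guidance genes, 53 reached an FPKM of 1 in one population or in both, and these genes are called kept. Of the other 18 genes, 7 were listed at 0 in both populations, namely *Epha6*, *Epha8*, *Epha10*, *Ntn5*, *Robo3*, *Slit1* and *Plxna4os1*. The genes nearest to the limit were *Sema3e*, just below it with an FPKM of 0.203 in Lgr5+ and 0.957 in Lgr6+ progenitors, and *Sema4c*, just above it with 1.33 and 0.823. Changes are given on the scale of log2(FPKM + 1), with the Lgr5+ value subtracted from the Lgr6+ value, which makes the change of weakly expressed genes look smaller than their ratio, and a gene was called higher in a population when the values on this scale differed by at least 1.5-fold.

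By this limit 14 of the 53 kept guidance genes were higher in Lgr6+ progenitors, 18 had the opposite direction and 21 lay closer together. Among all 13436 kept genes, 28.5% were higher in Lgr6+ and 23.3% in Lgr5+ progenitors, so that 51.8% were called in either direction, and the guidance genes stood at 26.4%, 33.96% and 60.4%. The median change was -0.28 over the kept guidance genes and 0.03 over all kept genes. Some genes are kept only through the population in which they are higher and are then likely to differ. When both populations had to reach an FPKM of 1, 44 guidance genes were left, of which 9 were higher in Lgr6+ and 15 in Lgr5+ progenitors, against 21.4% and 22.5% of the 11177 genes that met this condition. With a limit of 2-fold in place of 1.5-fold, 13 of the 53 were higher in Lgr6+ and 8 in Lgr5+ progenitors, against 18.2% and 11.7% of all kept genes and 29.9% in either direction. The side with more guidance genes therefore depended on the limit.

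**Figure D1:**
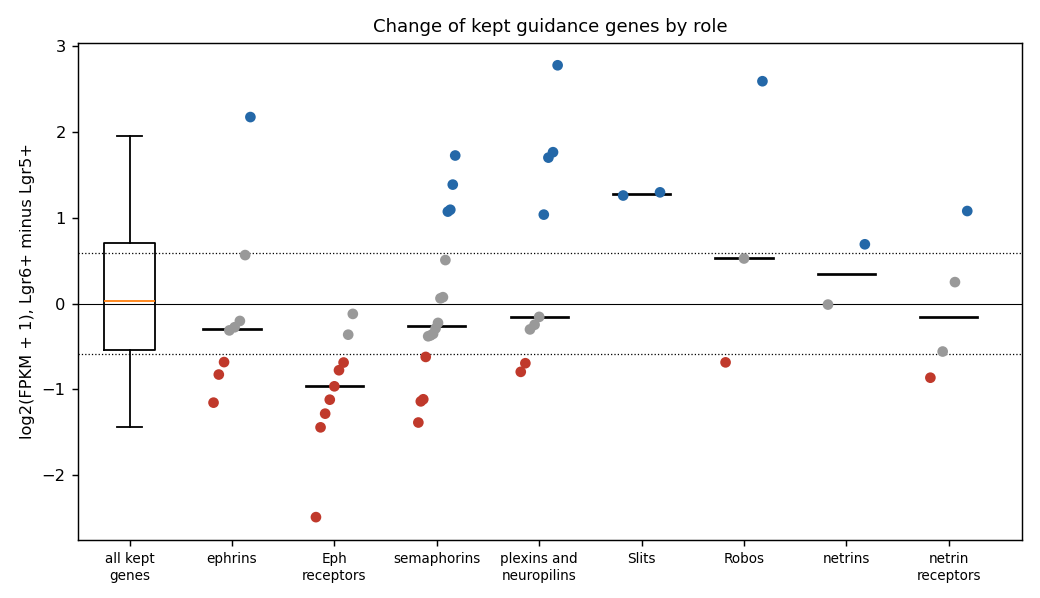
Change of each kept guidance gene by role, as log2(FPKM + 1) in Lgr6+ minus Lgr5+ progenitors. Points are genes (blue, at least 1.5-fold higher in Lgr6+; red, at least 1.5-fold higher in Lgr5+; grey, neither), black bars are medians, dotted lines mark 1.5-fold, and the box gives the median, the quartiles and the 5th to 95th percentile of all 13436 kept genes. All 9 kept Eph receptors lie below 0, whereas the plexins and neuropilins spread from -0.79 to 2.77.

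The counts for each ligand and receptor system are read against the 28.5% of all kept genes higher in Lgr6+ and the 23.3% higher in Lgr5+ progenitors, and differences between systems were not tested. Of the 17 kept ephrin and Eph genes, 10 were higher in Lgr5+ progenitors and 1 was higher in Lgr6+ progenitors. Of the 25 kept semaphorin, plexin and neuropilin genes, 6 were higher in Lgr5+ and 8 in Lgr6+ progenitors, which is near these shares. Of the 5 kept Slit and Robo genes, 3 were higher in Lgr6+ and 1 in Lgr5+ progenitors, and of the 6 kept netrin and netrin receptor genes, 2 were higher in Lgr6+ and 1 in Lgr5+ progenitors. With an FPKM of 1 needed in both populations, 4 Slit and Robo genes were left, 2 higher in Lgr6+ and 1 in Lgr5+ progenitors. Of the 4 netrin and netrin receptor genes left, 1 was higher in Lgr6+ and 0 in Lgr5+ progenitors. Promoters are shown for 4 genes chosen after their values were seen, *Sema5b* and *Nrp2* higher in Lgr6+ progenitors and *Ephb2* and *Ephb4* higher in Lgr5+ progenitors. *Robo4* and *Epha2*, which are not shown, had larger changes than *Sema5b*, *Ephb2* and *Ephb4*. The 250 bases before an annotated start of each are shown so that the promoters of genes that moved in opposite directions can be read side by side. They are from RefSeq in the build GRCm38.p6, on the strand of the gene, and capitals mark each CG. The start used need not be the outermost of the gene. The window of *Ephb2* lies inside its gene, which reaches 136836326 in RefSeq. The RefSeq gene of *Sema5b* begins at 35541154, within the window shown.
Sema5b, chr16:35541112-35541361, plus strand: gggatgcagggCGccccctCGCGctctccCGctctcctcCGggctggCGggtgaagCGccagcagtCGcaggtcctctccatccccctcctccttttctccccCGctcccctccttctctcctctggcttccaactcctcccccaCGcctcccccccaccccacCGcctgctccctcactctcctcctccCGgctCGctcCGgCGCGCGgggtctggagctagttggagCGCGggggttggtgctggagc
Nrp2, chr1:62703067-62703316, plus strand: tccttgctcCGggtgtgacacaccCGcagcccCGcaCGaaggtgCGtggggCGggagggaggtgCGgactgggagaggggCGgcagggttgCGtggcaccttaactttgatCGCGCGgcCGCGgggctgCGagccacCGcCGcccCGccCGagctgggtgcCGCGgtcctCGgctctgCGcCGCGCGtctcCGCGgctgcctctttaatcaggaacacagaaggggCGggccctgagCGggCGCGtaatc
Ephb2, chr4:136836013-136836262, minus strand: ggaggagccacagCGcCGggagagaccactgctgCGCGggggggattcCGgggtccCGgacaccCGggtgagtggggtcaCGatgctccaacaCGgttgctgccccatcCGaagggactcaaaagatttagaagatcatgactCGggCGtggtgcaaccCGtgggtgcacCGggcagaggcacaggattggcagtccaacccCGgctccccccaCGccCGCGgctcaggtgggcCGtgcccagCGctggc
Ephb4, chr5:137349859-137350108, plus strand: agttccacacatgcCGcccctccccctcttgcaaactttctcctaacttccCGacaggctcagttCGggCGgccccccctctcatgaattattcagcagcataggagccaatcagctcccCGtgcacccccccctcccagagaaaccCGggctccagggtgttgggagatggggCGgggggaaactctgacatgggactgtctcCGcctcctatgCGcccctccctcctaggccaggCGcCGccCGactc

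The window of *Nrp2* held 32 CG, that of *Ephb2* 20, that of *Sema5b* 19 and that of *Ephb4* 12. CG-rich windows were common among expressed genes, with a median of 16 CG over the 10036 kept genes that have a window, and the 46 kept guidance genes with a window had a median of 16.5. The median was 19 CG in the 13 windows of guidance genes higher in Lgr6+ progenitors and 12.5 in the 16 windows of those higher in Lgr5+ progenitors. Their quartiles overlapped, at 16 to 25 and 10.5 to 20.75, beside 9 to 23 over all kept genes. This difference was not tested, and all genes called in each direction were not counted. The letters CTTTGA, a core of the TCF/LEF motif through which Wnt signals reach genes, were searched on both strands and found in 13.8% of all 32851 windows. They were found in 3 of the 59 windows of kept guidance genes, some of which have more than 1 window, and of the 4 promoters shown, in that of *Nrp2*, where the match begins at position -146 relative to the start. The letters GTGGGAA, a form of the RBPJ motif used by Notch signals, were found in 5.42% of all windows and in 3 of the 59, and in none of the 4 shown. These matches and counts are descriptions of the letters, and binding was not measured.

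Among the ephrins, the ligands of the first system, all 8 were kept. *Efna1*, which is anchored to the membrane by a lipid, had the highest level, with an FPKM of 44.4 in Lgr5+ and 38.5 in Lgr6+ progenitors. *Efna4* had 29.3 and 23.98, and *Efnb2*, the ligand of EphB4 at borders between arteries and veins, had 30.2 and 24.1. These 3 ephrins were lower in Lgr6+ progenitors by less than 1.5-fold. *Efna5*, known for repelling axons in sensory maps, had 24.1 and 36.1, a change of 0.56 toward Lgr6+ progenitors that was just short of the limit. The B ephrins, which cross the membrane, were all lower in Lgr6+ progenitors, *Efnb1* with 16.2 and 8.70 and *Efnb3* with 15.04 and 6.21 by more than 1.5-fold.

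*Efna2* and *Efna3* were the ephrins with the lowest levels in Lgr5+ progenitors. *Efna2* had 1.27 in Lgr5+ and 9.23 in Lgr6+ progenitors, a change of 2.17, and was the only ephrin or Eph gene called higher in Lgr6+ progenitors. The table gives *Efna2* an interval of 672 kb on chromosome 10, although the gene spans 10.5 kb in RefSeq, and whether fragments of neighbouring genes entered this value was not tested. *Efna3* had 1.38 and 0.484, a change of -0.68.

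The kept Eph receptors were lower in Lgr6+ progenitors. Of the 14 receptors, 9 were kept, all 9 were lower in Lgr6+ progenitors and 7 of the 9 by at least 1.5-fold, beside 23.3% of all kept genes. Their median change was -0.96, and all 9 kept their sign after quantile normalization. A pseudocount cannot alter a sign, and upper quartile scaling left the median at -0.96. The count of 7 stayed the same with a pseudocount of 0.1, after quantile normalization and after upper quartile scaling. Among the 8 receptors that reached an FPKM of 1 in both populations, 6 were higher in Lgr5+ progenitors, beside 22.5% of all such genes. Summed over all 14 receptors, the FPKM was 165 in Lgr5+ and 98.004 in Lgr6+ progenitors, while the sum over the 8 ephrins was 162 and 147. These sums are to be read beside the sum over all genes, 754163 in Lgr5+ and 627932 in Lgr6+ progenitors. Among the ephrins, *Efna2* and *Efna5* lay opposite to the other 6, so their sum does not show how far single ligands differed.

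The EphB receptors, which mainly bind B ephrins, were all kept. *Ephb1* had the highest level, with 38.3 in Lgr5+ and 29.6 in Lgr6+ progenitors, a change of -0.36 that did not reach the limit. *Ephb4*, on chromosome 5 from 137350109 to 137374522, had 22.2 and 8.55, a change of -1.28. *Ephb3*, a receptor that positions cells in the intestinal crypt together with EphB2, had 19.6 and 8.48, a change of -1.12. *Ephb2*, on chromosome 4 from 136653610 to 136836011, had 6.22 and 1.66, and its change of -1.44 was the largest of the EphB receptors. *Ephb6*, which lacks kinase activity, had 11.9 and 6.99, a change of -0.69. As a ratio of FPKM, Lgr5+ progenitors were 3.75 times as high as Lgr6+ progenitors for *Ephb2*, 2.598 times for *Ephb4*, 2.31 times for *Ephb3* and 1.70 times for *Ephb6*.

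Of the 9 EphA receptors, which mainly bind A ephrins, 4 were kept. *Epha7* had 36.3 in Lgr5+ and 20.8 in Lgr6+ progenitors, a change of -0.78. *Epha4*, which binds ephrins of both classes and acts in spiral ganglion guidance, had 20.5 and 18.8 and was nearly level with a change of -0.12. *Epha1* had 5.15 and 2.15, a change of -0.96, and its gene overlaps that of *Zyx*, so reads of the overlap could belong to either. *Epha2*, a receptor of many epithelia, had 5.003 and 0.072, and no other guidance gene had a change below its -2.49. The 5 EphA receptors that were not kept included *Epha3*, listed at 0 in Lgr5+ and at 0.604 in Lgr6+ progenitors, and *Epha5* with 0.307 and 0.392.

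**Figure D2:**
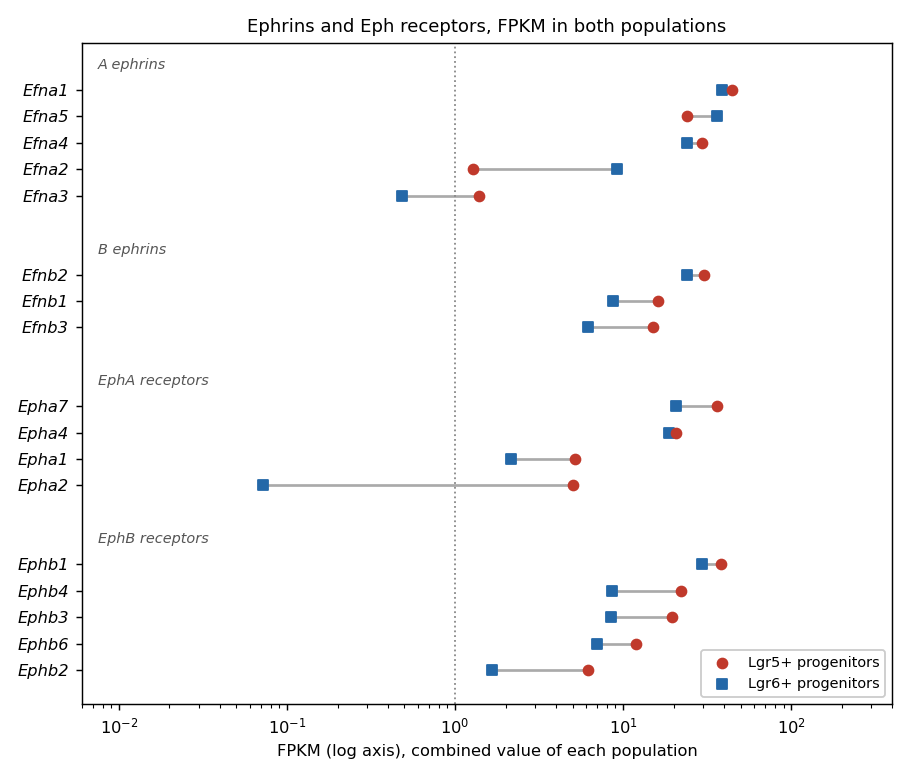
FPKM of the 17 kept ephrin and Eph genes on a log axis, with a red circle for Lgr5+ and a blue square for Lgr6+ progenitors, each the combined value of its libraries, and a dotted line at an FPKM of 1. All 9 Eph receptors have the blue square to the left, while *Efna2* and *Efna5* have it to the right.

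Among the semaphorins, *Sema5b* stood out by its level in both populations. *Sema5b*, on chromosome 16 from 35541362 to 35664258, encodes a membrane-bound semaphorin that repels growing neurites. Its FPKM was 57.8 in Lgr5+ and 193 in Lgr6+ progenitors, a ratio of 3.34 and a change of 1.72. By FPKM it ranked 1737th of all genes in the Lgr5+ and 535th in the Lgr6+ population, and it was the highest of all 71 guidance genes in both. *Sema5b* made up 36.4% of the summed FPKM of the 20 semaphorins in the Lgr5+ population and 70.8% in the other. The other semaphorins together had 101 in Lgr5+ and 79.5 in Lgr6+ progenitors, so the sum without *Sema5b* was lower in Lgr6+ progenitors. The sum over all genes was also lower there, with 754163 in Lgr5+ and 627932 in Lgr6+ progenitors. *Sema5a*, the relative of *Sema5b*, had 0.605 and 3.19, a change of 1.38.

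The secreted class 3 semaphorins lay in both directions. *Sema3f*, a ligand of neuropilin-2, had the highest level of the class with 19.8 in Lgr5+ and 6.97 in Lgr6+ progenitors, a change of -1.38. *Sema3a*, the classical ligand of neuropilin-1, had 5.15 and 2.997, a change of -0.62. *Sema3c* was higher in Lgr6+ progenitors, with 0.339 and 1.85 and a change of 1.09. *Sema3d* with 3.88 and 5.93 and *Sema3b* with 2.71 and 1.87 lay within the limit, *Sema3e* was not kept, and *Sema3g* was listed at 0.037 and 0. Of the 7 genes of the class, 5 were kept, 2 higher in Lgr5+ and 1 in Lgr6+ progenitors.

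Of the 5 kept class 4 semaphorins, which are bound to the membrane, *Sema4g* with 9.33 in Lgr5+ and 3.77 in Lgr6+ progenitors and *Sema4d*, the ligand of plexin-B1, with 6.98 and 2.62 were higher in Lgr5+ progenitors. Their changes were -1.11 and -1.14. *Sema4b* with 3.30 and 2.30, *Sema4c* and *Sema4f* with 2.35 and 2.52 were not called, and *Sema4a* was listed at 0.680 and 0. The class 6 semaphorins, which also cross the membrane and bind A plexins, were led by *Sema6b* with 20.5 and 16.6 and *Sema6a* with 17.3 and 14.7, both within the limit. *Sema6d* had 4.23 in Lgr5+ and 9.98 in Lgr6+ progenitors, a change of 1.07, while *Sema6c* was level with 1.65 and 1.76. *Sema7a*, the only class 7 member, had 0.504 and 0.714 and was not kept.

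Over all semaphorins, 4 of the 16 kept genes were higher in Lgr6+ and 4 in Lgr5+ progenitors, near the 28.5% and 23.3% of all kept genes, and the median change was -0.26. After quantile normalization 4 were higher in Lgr6+ and 7 in Lgr5+ progenitors, beside 25.5% of all kept genes in each direction. Before normalization, 13 semaphorins reached an FPKM of 1 in both populations, with 2 higher in Lgr6+ and 4 in Lgr5+ progenitors. The shares of all such genes were 21.4% and 22.5%.

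The neuropilins, co-receptors of class 3 semaphorins, differed in opposite directions. *Nrp2* lies on chromosome 1 from 62703317 to 62818692, and its FPKM was 1.35 in Lgr5+ and 15.1 in Lgr6+ progenitors. Its ratio was 11.1, and 212 of the 13436 kept genes had a change above its 2.77. No guidance gene was above it on this scale, whereas with a pseudocount of 0.1 *Robo4* at 5.28 and *Plxnd1* at 4.19 exceeded *Nrp2* at 3.38. *Nrp1* had 5.996 and 3.32, a change of -0.69. The neuropilin with the higher level was therefore *Nrp1* in the Lgr5+ and *Nrp2* in the Lgr6+ population. Across the neuropilins and the ligands for which they are best known, *Nrp2* and *Sema3f* lay in opposite directions, and *Nrp1* and *Sema3a* were both higher in Lgr5+ progenitors.

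The A plexins, which carry the signal of neuropilins and bind class 5 and class 6 semaphorins, were also divided. *Plxna1* had 4.94 in Lgr5+ and 11.2 in Lgr6+ progenitors, a change of 1.03. *Plxna2*, on chromosome 1 from 194619829 to 194816868, had 1.26 and 6.33, a ratio of 5.02 and a change of 1.70. *Plxna3* had 6.62 and 3.39, a change of -0.79. *Plxna4* had 2.37 and 1.74, a change of -0.30 that became -0.62 after quantile normalization and then passed the limit. The highest A plexin was *Plxna3* in the Lgr5+ and *Plxna1* in the Lgr6+ population.

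Of the other plexins, *Plxnb2*, a receptor of class 4 semaphorins, was the highest with 29.1 in Lgr5+ and 26.03 in Lgr6+ progenitors, and *Plxnb1* had 12.4 and 10.3. Neither differed by 1.5-fold. *Plxnd1*, the receptor of Sema3E in blood vessels, had 0.044 and 2.54, a change of 1.76. *Plxnb3* was listed at 0 in Lgr5+ and at 0.752 in Lgr6+ progenitors, and *Plxnc1* had 0.306 and 0.548. Thus 4 of the 9 kept plexins and neuropilins were higher in Lgr6+ progenitors and 2 in Lgr5+ progenitors, beside 28.5% and 23.3% of all kept genes. Among the 8 that reached an FPKM of 1 in both populations the counts were 3 and 2, beside 21.4% and 22.5% of all such genes.

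**Figure D3:**
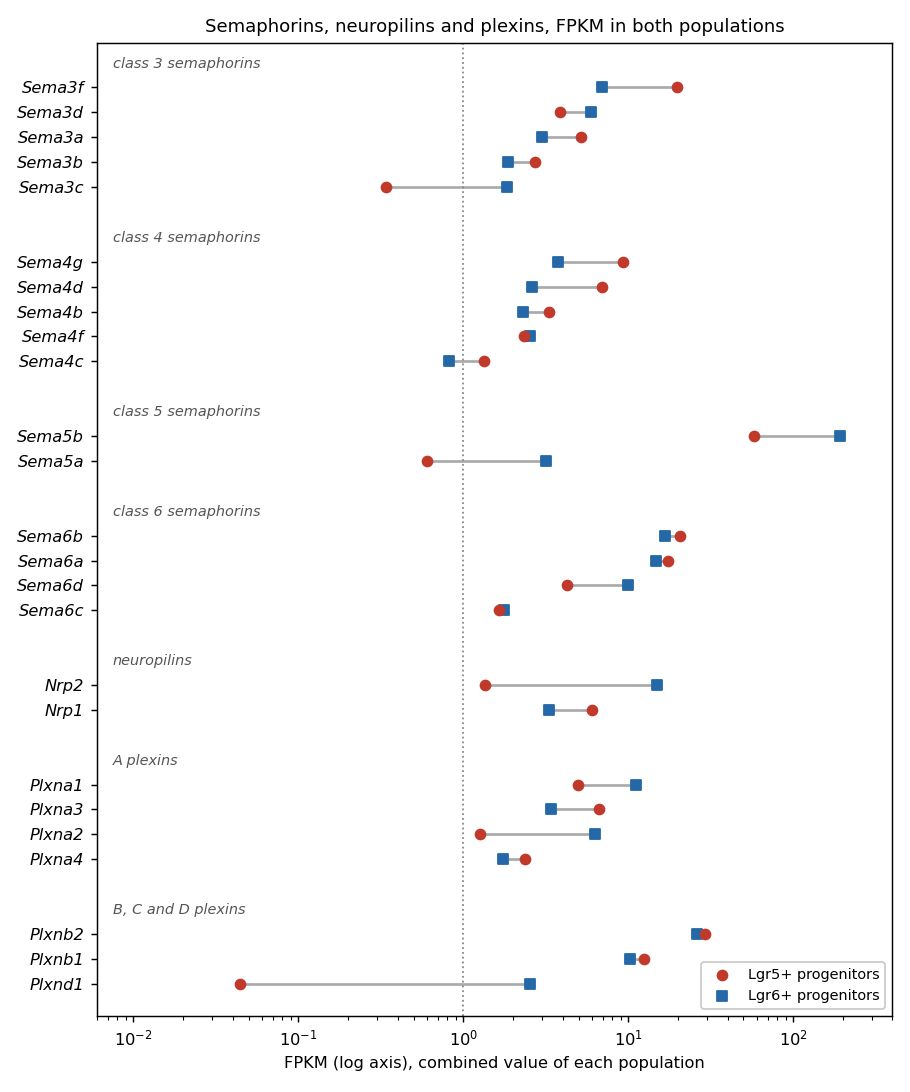
FPKM of the 25 kept semaphorin, neuropilin and plexin genes on a log axis, with a red circle for Lgr5+ and a blue square for Lgr6+ progenitors, each the combined value of its libraries, and a dotted line at an FPKM of 1. *Sema5b* is the rightmost gene in both populations, and *Plxnd1* and *Nrp2* have the longest lines toward Lgr6+ progenitors.

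Slits were low and higher in Lgr6+ progenitors. *Slit2* lies on chromosome 5 from 47983155 to 48306282, and its FPKM was 1.03 in Lgr5+ and 3.98 in Lgr6+ progenitors, a change of 1.29. *Slit3*, on chromosome 11 from 35121456 to 35708507, had 1.05 and 3.90, a change of 1.26. Both Slit genes were near the limit of 1 in Lgr5+ progenitors and about equal to each other in each population.

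Their receptors did not share a direction. *Robo1*, the Slit receptor with the highest level in both populations, had 15.4 in Lgr5+ and 9.17 in Lgr6+ progenitors, a change of -0.68. *Robo2* had 4.17 and 6.44, a change of 0.52 that passed the limit with a pseudocount of 0.1, at 0.61. *Robo4*, known from the endothelium of blood vessels and on chromosome 9 from 37402046 to 37414022, had 0.037 and 5.23, a change of 2.59.

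Among the netrins, *Ntn1*, which shapes the semicircular canals of the developing ear, was level with an FPKM of 2.43 in Lgr5+ and 2.40 in Lgr6+ progenitors. *Ntn3* had 0.858 and 1.99, a change of 0.69 that fell below the limit after quantile normalization, and its gene overlaps that of *Tbc1d24*. *Ntn4* had 0.094 and 0.804 and was not kept. The netrin receptors were led by *Unc5b*, a receptor for repulsion, with 34.9 and 23.4 and a change of -0.56, just short of the limit. *Neo1*, which encodes neogenin, had 9.14 and 11.0. *Unc5a* had 2.30 in Lgr5+ and 5.97 in Lgr6+ progenitors, a change of 1.08, with a gene that overlaps that of *Hk3*, and *Unc5c* had 1.81 and 0.544, a change of -0.86. *Dcc*, the receptor for attraction to netrin, was at 0.115 and 0.293 and not kept, and neither was *Unc5d*, at 0.385 and 0.302.

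**Figure D4:**
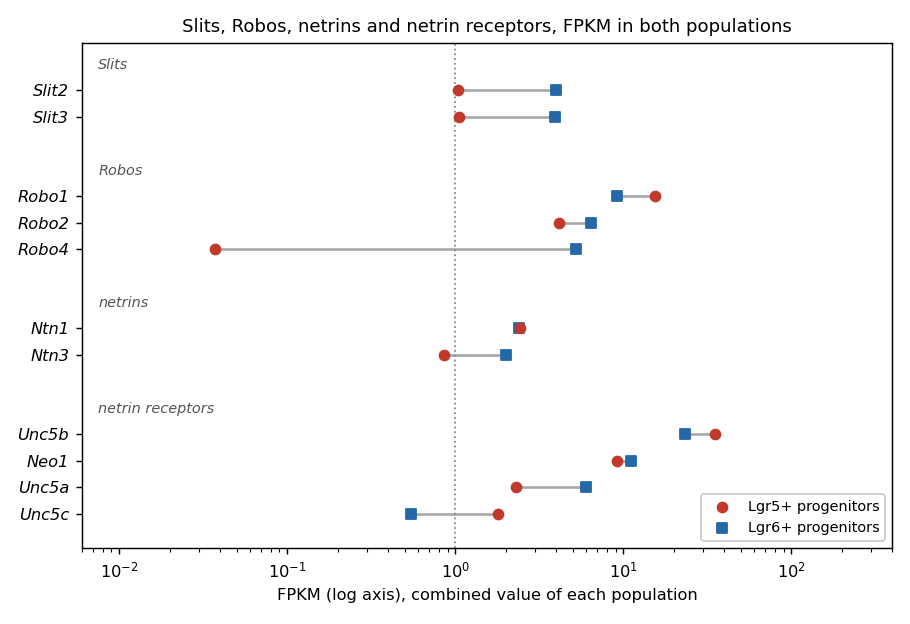
FPKM of the 11 kept Slit, Robo, netrin and netrin receptor genes on a log axis, with a red circle for Lgr5+ and a blue square for Lgr6+ progenitors, each the combined value of its libraries, and a dotted line at an FPKM of 1. Both Slits have the blue square to the right, and *Robo4* has the longest line.

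The lowest values were coarse, most of all in Lgr5+ progenitors. Low FPKM values fell on steps. Over genes with 1 annotated coding transcript, FPKM times transcript length in kb less 0.2 gave a step of 0.129 in Lgr5+ and 0.0403 in Lgr6+ progenitors, so a step in Lgr6+ progenitors was 3.19 times finer. By these steps and the longest annotated transcript, *Robo4* was at 1.06 steps in the Lgr5+ and 477 in the Lgr6+ population, and *Plxnd1* was at 2.31 and 423. *Epha2* was at 144 steps in Lgr5+ and 6.63 in Lgr6+ progenitors, and *Nrp2* at 68.5 and 2437. No ratio is given for *Robo4*, *Plxnd1* and *Epha2*, whose lower values stand for under 10 steps. Whether a step is 1 fragment of 1 library is not known, and no counting interval was calculated.

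Markers of other cell types also differed between the sorted populations. Their counts are to be read beside the 28.5% of all kept genes higher in Lgr6+ and the 23.3% higher in Lgr5+ progenitors. All 8 endothelial markers examined, among them *Pecam1*, *Cdh5* and *Cldn5*, were higher in Lgr6+ progenitors, with a summed FPKM of 32.0 in Lgr5+ and 175.8 in Lgr6+ progenitors and *Kdr* listed at 0 in Lgr5+ progenitors. Of these 8 markers, 5 reached an FPKM of 1 in both populations, and the others were kept only through Lgr6+ progenitors. All 7 kept macrophage markers of 8 were higher in Lgr6+ progenitors, with sums of 1.47 and 256, and 5 of the 8 were listed at 0 in Lgr5+ progenitors. None of the 8 reached an FPKM of 1 in Lgr5+ progenitors. The 7 were therefore kept only through Lgr6+ progenitors and could not have been higher in Lgr5+ progenitors. *Robo4* and *Plxnd1*, known from endothelium, and *Nrp2* were higher in the same population as these markers. *Ephb4* with 22.2 and 8.55 and its ligand *Efnb2* with 30.2 and 24.1, named above for arteries and veins, were lower in it. *Nrp1* with 5.996 and 3.32 was also lower. The part of endothelial cells and macrophages in the values of the guidance genes was not tested. Of the 9 mesenchyme markers, 4 were higher in Lgr6+ and 1 in Lgr5+ progenitors, with sums of 331 and 593. *Otos* alone gave 5.60 and 248 of these sums, whereas *Lum*, the 1 higher in Lgr5+ progenitors, gave 179 and 101. The Schwann cell and glial markers summed to 73.3 and 197, with 2 of the 4 kept higher in Lgr6+ progenitors. Neuron markers summed to 93.6 and 126, with 2 of the 7 kept higher in Lgr6+ and 1 in Lgr5+ progenitors. *Snap25* gave 7.63 and 53.4 of these sums, while *Nefm* gave 60.2 and 45.2. HC markers summed to 900.4 and 1171, with 5 of 8 higher in Lgr6+ progenitors. The supporting cell (SC) and prosensory markers were all kept, with 3 of 13 higher in Lgr6+ and 5 in Lgr5+ progenitors, and summed to 5682 and 5729. *S100a1* alone gave 2959 and 3177 of these near-equal sums. Single markers differed, such as *Hes5* with 505 and 91.7 and *Fabp7* with 446 and 1370. Pericyte markers summed to 8.27 and 9.19 and melanocyte markers to 3.34 and 6.35, each with 1 of the 2 kept higher in Lgr6+ progenitors. *Lgr5* had an FPKM of 9.65 in Lgr5+ and 24.99 in Lgr6+ progenitors, and *Lgr6* had 2.06 and 2.90. In sorted pools, fewer cells of a type and less RNA per cell cannot be told apart.

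The intracellular partners of these receptors were compared as a list of 63 genes. Of the 59 kept, 10 were higher in Lgr6+ and 15 in Lgr5+ progenitors, beside 28.5% and 23.3% of all kept genes, and the median change was -0.01. Among the 6 adaptors, which join receptors to the cytoskeleton, 3 were higher in Lgr5+ progenitors, namely *Nck2* with an FPKM of 84.1 and 30.4, *Grb10* with 33.99 and 14.97 and *Crk* with 22.0 and 10.2. *Vav3*, an exchange factor used by Eph receptors, had 15.2 in Lgr5+ and 4.45 in Lgr6+ progenitors. *Srgap1*, a Slit-Robo effector, had 20.6 and 34.8, while its relative *Srgap2* had 14.7 and 5.59. *Kalrn*, an exchange factor for Rac, had 0.015 and 3.54. Of the 13 cytoskeletal partners, 4 were higher in Lgr5+ progenitors, among them *Dpysl5*, a collapsin response mediator, with 4.85 and 0.983, and *Mical2*, which oxidizes actin, with 1.92 and 0.063. *Ablim1*, an actin-binding partner of netrin signals, was higher in Lgr6+ progenitors with 4.18 and 13.46. The kinases and phosphatases had 2 of 13 kept genes higher in Lgr6+ and 3 in Lgr5+ progenitors.

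Other guidance molecules outside the symbol rule formed a list of 24 genes, of which 16 were kept, 7 higher in Lgr6+ and 5 in Lgr5+ progenitors, beside 28.5% and 23.3% of all kept genes. *Gpc1*, a glypican that binds Slits, had the highest level, with 121 in Lgr5+ and 44.3 in Lgr6+ progenitors. *Slitrk6*, a membrane protein needed for innervation of the inner ear, was nearly level with 41.4 and 38.7. *Rgma*, a ligand of neogenin, had 15.8 and 9.13, and its relative *Rgmb* had 5.73 and 9.97, the reverse order. *Dscaml1*, a cell adhesion molecule, had 5.29 and 17.1, and *Draxin*, a secreted netrin partner, had 0.447 and 1.88.

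**Figure D5:**
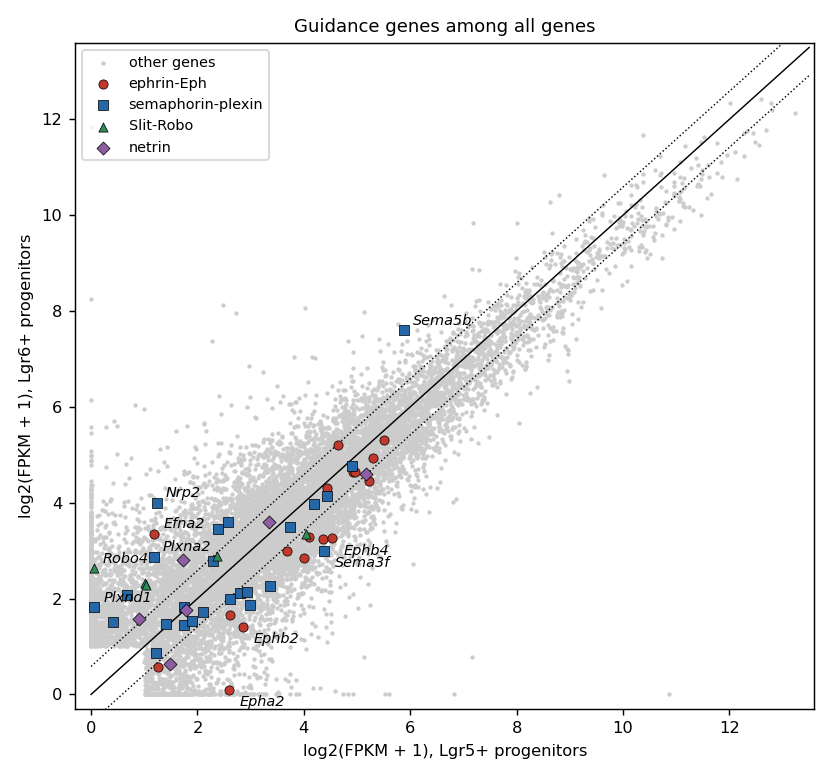
Log2(FPKM + 1) of the 53 kept guidance genes (coloured by system) among all 13436 kept genes (grey), Lgr5+ progenitors on the horizontal and Lgr6+ progenitors on the vertical axis. The solid line marks equal values and the dotted lines 1.5-fold. *Sema5b* lies farthest up, and *Nrp2*, *Robo4* and *Epha2* lie far from the solid line at low levels in 1 population.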

How the data were processed

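RNA-Seq values of sorted Lgr5+ and Lgr6+ progenitors were taken from the single deposited table. The authors amplified the RNA with the SMART-Seq v4 low-input kit, trimmed reads with Trimmomatic, mapped them with TopHat to the mouse genome and calculated FPKM with Cufflinks, with versions not given in the sources used here. The FPKM values the authors deposited are 1 combined value for each population. The table also holds the fold change, p-value and q-value of the authors' own comparison, which were not used. The paper names mm9 as the build and the labels name mm10, and 98.8% of the intervals of the 22500 genes matched by symbol overlap the gene in GRCm38, so positions are GRCm38. Whether strand was used is not given in the sources used here, and 8 of the 71 guidance genes overlap a coding gene, among them *Sema3b*, *Plxna1* and *Plxna4os1*.

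Changes were calculated on log2(FPKM + 1), with a minimum FPKM of 1 in at least 1 population and a limit of 1.5-fold. No test was run, because each population has 1 value. Alternatives were a pseudocount of 0.1, other filters, 2 scalings and a 2-fold limit. The table gives no counts, so the depth behind single values is unknown. The genes and the lists of markers and partners were chosen with earlier results of these data known. By the rule for named genes, any kept guidance gene could be named, and always the highest by mean FPKM of each subfamily, those past 1.5-fold with an FPKM of 5 or more in a population, those at 0 in 1 population and at least 1 in the other (none was found), and those nearest the filter. Guidance genes that were not kept are given so that every gene is accounted for. *Nck2*, *Vav3*, *Gpc1* and the other list genes given with values were picked from the lists after their values were seen. A RefSeq window was found for 60 guidance genes, 46 of them kept, and CG was counted in the first window of each gene. The 1.5-fold calls and the quantile normalization were run on simulated data with little noise, planted 2-fold changes and no values near the filter. Recovery was nearly fixed by these settings, so this checks the code and not the calls at low FPKM. Python 3.11.15, numpy 2.4.6, pandas 2.3.3 and matplotlib 3.10.9 were used.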

Additional observations from a re-analysis of the deposited data

How the results depend on the processing

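No paired analysis was possible because the table holds 1 combined value for each population, and for the same reason no library could be left out. The 14 guidance genes higher in Lgr6+ progenitors became 8 when one population had to reach an FPKM of 5 and 9 when both had to reach 1, settings that leave 38 and 44 of the 53 genes. The share of all genes higher in Lgr6+ progenitors also fell, from 28.5% to 24.1% and 21.4%. The 18 higher in Lgr5+ progenitors became 8 with a 2-fold limit, where 13 were higher in Lgr6+ progenitors, so the larger side depended on the limit. With this limit 11.7% of all kept genes were higher in Lgr5+ and 18.2% in Lgr6+ progenitors. The median change of -0.28 became -0.012 without a filter on low values, where the other 18 genes were included. The other alternatives gave 13 to 18 genes higher in Lgr6+ and 15 to 22 higher in Lgr5+ progenitors. Of the 53 kept genes, 46 kept their call with a pseudocount of 0.1, after quantile normalization and after upper quartile scaling, among them all 18 higher in Lgr5+ and 13 of the 14 higher in Lgr6+ progenitors, the exception being *Ntn3*. Without counts or single libraries, neither depth nor replicate spread limits could be set.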
